A study of Mus musculus with 7 samples.

Results

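The variable (V) segments of the T cell receptor genes were placed against lamin-associated domains (LADs), the stretches of chromatin that lie at the nuclear lamina, in mouse embryonic fibroblasts. Members were all genes of the mm10 RefSeq table, of any gene type, whose symbol starts with Trav, Trbv, Trdv or Trgv; no symbol started with the older forms Tcra-V, Tcrb-V or Tcrg-V. There were 178 members among the 48440 annotated genes with a midpoint inside the chromosome spans of the list: 136 on chromosome 14, 35 on chromosome 6 and 7 on chromosome 13. The annotation types 148 of them as V segments and 30 as V segment pseudogenes.

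The series used iMEF fibroblasts, described by the submitters as lines derived independently from a single mouse colony, and CUT&RUN, in which an antibody brings a nuclease to its target so that the DNA around it is cut and released. Of 7 libraries, 2 were made with an antibody to Lamin B1, a filament protein of the lamina, 2 with IgG as control, 2 with different antibodies to H3K9me2 and 1 with an antibody to H3K14ac. The values below come from 1 list of LADs whose name says wild type and merged; it was read as the joint result of the 2 Lamin B1 libraries, for which the labels give no treatment. The list gives only where each domain begins and ends, so there is no signal per segment, no depth and no replicate error, and the fibroblast label could not be checked against marker genes. No groups exist to be compared, so counts and distances are given as descriptions, beside the same counts over all genes.

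T cell receptors are assembled by V(D)J recombination: in developing T cells, the RAG1 and RAG2 enzymes cut at signals beside gene segments and join a V segment to a joining (J) segment, with a diversity (D) segment between them in the beta and delta chains, upstream of a constant (C) region. The Tra and Trd loci, for the alpha and delta chains, are nested in one another; Trb encodes the beta chain and Trg the gamma chain. Rearrangement needs the segments to be accessible in chromatin, and in fibroblasts, which do not rearrange these genes, the loci keep their germline order.

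A member was counted in a LAD when the midpoint of the gene lay between the ends of a domain. This was the case for 132 of the 178 V segments, or 74.2%, against 32.9% of all annotated genes (15929 of 48440) and 24.6% of protein-coding genes. The other 46 lay outside. Of the D, J and C segments, 8 of 8 were in a LAD in Trg, 0 of 66 in Tra/Trd and 0 of 18 in Trb, which makes 8 of 92 (8.70%) in all. The last value rests on a gap of 67.5 kb in Trb: with LADs joined across gaps of at most 250 kb, or extended by 50 kb at both ends, that gap closes and the total is 26 of 92 (28.3%). The loci differed: on chromosome 13 all 7 Trg V segments were in a LAD, on chromosome 6 it was 34 of 35 Trb V segments (97.1%), and on chromosome 14 it was 91 of the 136 Tra and Trd V segments (66.9%). Over all genes of these chromosomes the shares were 31.6% on chromosome 13, 38.6% on chromosome 6 and 38.5% on chromosome 14. Segments of 1 locus sit side by side in the same domain and are not independent, so the 178 members amount to 3 loci.

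**Figure D1:**
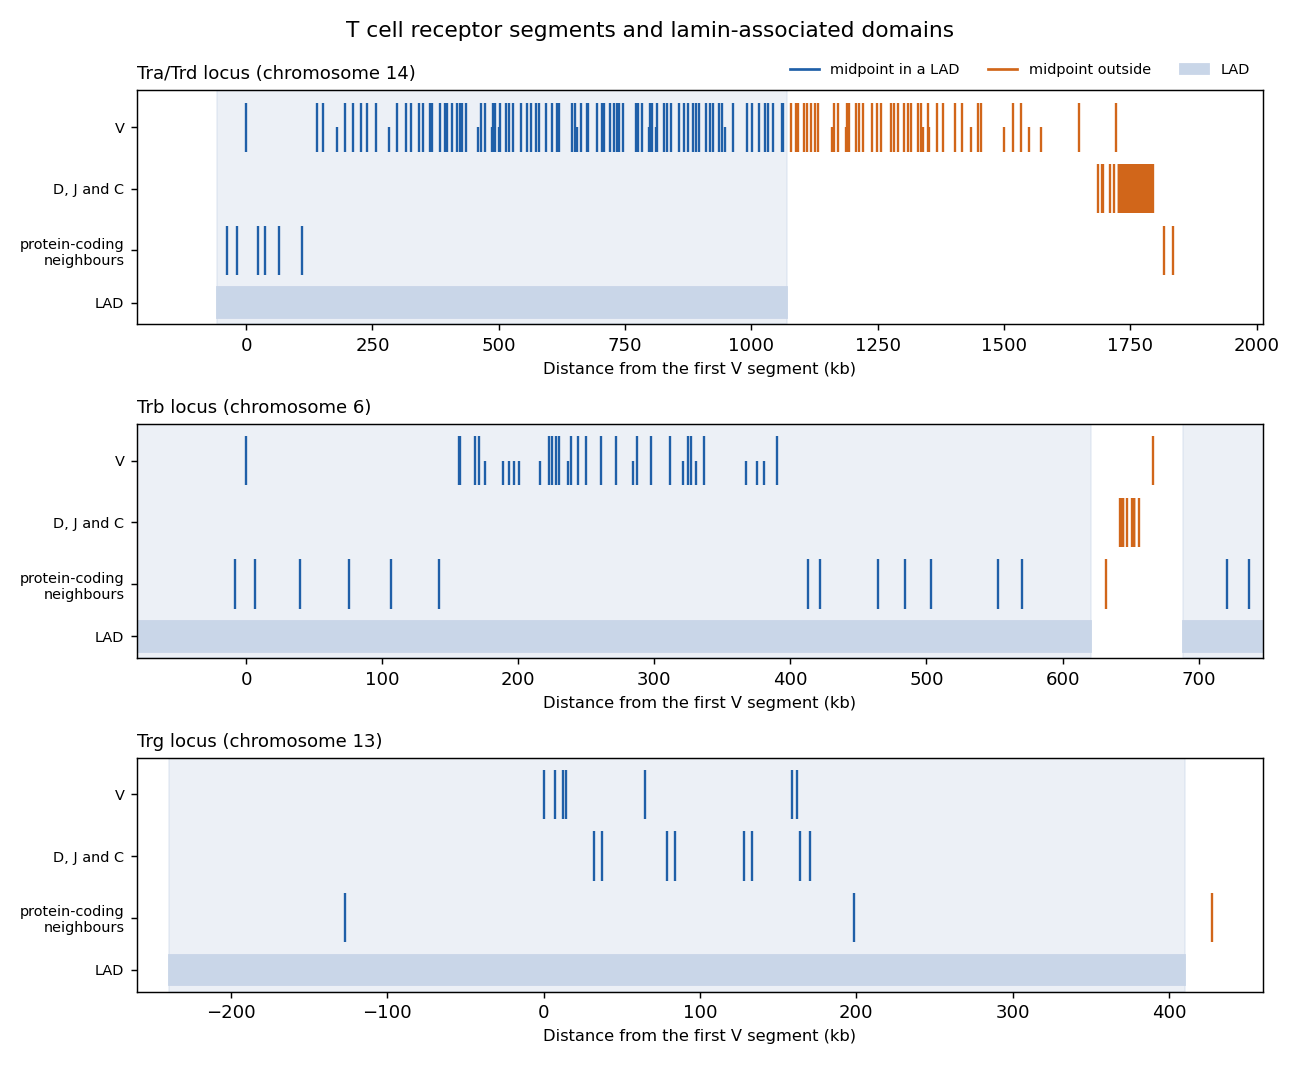
Map of the Tra/Trd, Trb and Trg loci; the x axis is the distance from the first V segment of the locus in kb, vertical lines are gene midpoints (short lines in the V row are pseudogenes), blue lines lie in a LAD and orange lines outside, and the shaded bands are the LADs. Protein-coding neighbours are the genes within the locus and the nearest ones on each flank that fall in the plotted range. The 91 V segments on the left of Tra/Trd and 34 of 35 in Trb sit in a LAD while the D, J and C segments of both loci sit outside, and the Trg locus lies wholly in 1 LAD.

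In the Trb locus the border of the domain separated the V segments from the segments they are joined to. The LAD ran from 40494520 to 41512015 on chromosome 6 (mm10; 1017 kb, rank 431 by length among 1437 LADs) and held Trbv1 to Trbv30. It ended beyond the last of these V segments, and the next LAD began at 41579516 and ran to 42212013. The gap between them measured 67.5 kb, short for this list, in which 84 of 1416 gaps were no longer than that and the median gap was 240.0 kb. This gap held all 18 D, J and C segments of the locus and Trbv31. Both D segments, Trbd1 (41533201 to 41533212) and Trbd2, were in it, 21.2 and 30.2 kb from the nearest border. The constant regions Trbc1 (41538219 to 41539665) and Trbc2 (41546730 to 41548181) lay 26.9 and 32.1 kb from the nearest border, which puts them near the middle of the gap.

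Trbv31 (41557693 to 41558371), listed with the older name Tcrb-V14, was the V segment of this locus outside the LADs. It is known for its place downstream of Trbc2, where it lies in the opposite orientation and is joined by inversion. Its midpoint was 21.5 kb from the second LAD and 46.0 kb from the first. Trbv1 (40891296 to 40891885), the first V segment, is set apart from the rest by trypsin-like protease genes and lay 397.1 kb inside. The deepest was Trbv2, at 464.2 kb from a border, and the last before the D segments was Trbv30 (41281376 to 41281990), still 230.3 kb inside. The Trbv13 segments, older name Tcrb-V8, which are common in the receptors of mouse natural killer T cells, lay at 395.8 kb (Trbv13-1), 390.4 kb (Trbv13-2) and 381.7 kb (Trbv13-3). The 34 V segments in the LAD thus lay 230.3 to 464.2 kb inside, all deeper than the length of the gap.

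The border itself fell in a cluster of trypsinogen genes, which encode the precursors of a digestive protease of the pancreas and stand between Trbv30 and Trbd1. Of the 13 protein-coding genes overlapping the Trb locus, 12 lay in the LAD, among them Try4 (208.1 kb inside), Try5 (199.0 kb), Try10 (156.0 kb), Prss3 (136.3 kb) and Prss1 (50.7 kb). The thirteenth, Prss2 (41521776 to 41525079), lay 11.4 kb outside. Prss1 and Prss2 are the protein-coding genes nearest the border on each side, so their promoters are shown, from 250 bases before to 50 bases after the RefSeq start (GRCm38.p6, plus strand; Prss1 at chr6:41458680-41458979 and Prss2 at chr6:41521526-41521825). Capitals mark the TATA box letters TATAAA, searched on both strands:
Prss1: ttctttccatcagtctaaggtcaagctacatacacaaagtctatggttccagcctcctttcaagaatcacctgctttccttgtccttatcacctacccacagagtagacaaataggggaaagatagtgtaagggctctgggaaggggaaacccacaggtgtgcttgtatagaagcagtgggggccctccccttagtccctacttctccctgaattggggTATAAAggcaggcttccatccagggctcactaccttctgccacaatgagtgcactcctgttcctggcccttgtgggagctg
Prss2: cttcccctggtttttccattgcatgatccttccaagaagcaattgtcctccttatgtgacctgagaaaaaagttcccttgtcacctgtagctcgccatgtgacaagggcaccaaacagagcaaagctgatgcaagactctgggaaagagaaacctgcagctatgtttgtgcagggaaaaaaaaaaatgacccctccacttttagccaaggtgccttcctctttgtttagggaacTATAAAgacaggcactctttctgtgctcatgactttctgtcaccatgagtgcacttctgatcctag
Each promoter holds the motif 1 time, 31 bases before the start in Prss1 and 16 in Prss2, and 13.6% of all 32851 promoters of 300 bases in the table hold it on either strand. A global alignment of both promoters had 183 identical and 89 mismatched bases and 56 positions in gaps (67.3% identity over aligned bases). No V segment has an entry in the promoter table.

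In the Tra/Trd locus the border ran through the V segments. The LAD extended from 52371156 to 53498651 on chromosome 14 (1127 kb, rank 382 by length) and held 91 V segments in an unbroken run from Trav1 (52427967 to 52428876) to Trav6-5 (53491152 to 53491622). From Trav10 (53505790 to 53506286) onwards, all of the other 45 V segments were outside, up to Trdv5 (54148662 to 54149201). The nearest V segments on either side were Trav6-5, 7.26 kb inside, and Trav10, 7.39 kb outside. No V segment midpoint lay within 2.5 kb of this border, which is the step in which the list's domain lengths come, and 11 lay within 50 kb.

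The V segments in the LAD are the distal ones, farthest from the J and C segments. Trav1, the first, encodes the V part of the invariant alpha chain of mouse mucosal-associated invariant T cells, and lay 57.3 kb from the low-coordinate end of the domain. Trav2 (52567293 to 52568053) followed at 196.5 kb. The deepest member was Trav12d-3, at 558.9 kb from a border. Towards the border the depth was 44.1 kb at Trav6-4, 37.2 kb at Trav7-4, 28.7 kb at Trav8-1 and 10.3 kb at Trav9-1, as the order of segments requires.

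The V segments outside are the proximal ones, which in thymocytes are known to be used in the earlier rounds of alpha chain rearrangement. Their median distance from the border was 218.4 kb. Trav17 lay at 308.2 kb, Trav18 at 332.8 kb, Trav19 at 346.9 kb and Trav21-dv12 at 377.7 kb. Trav subfamilies 17 to 23, each with 1 annotated member, were thus all outside.

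Beyond the border there was no further LAD for 4642 kb, and 63 of the 1416 gaps in the list were longer. This gap held the 45 proximal V segments and all 66 D, J and C segments of both loci. It also held 113 protein-coding genes, or 24.3 per Mb, against 7 in the LAD, or 6.21 per Mb, of which 6 were olfactory receptors. The 60 annotated Traj segments lay at a median of 688.4 kb from the border. Trac (54220521 to 54224198), the alpha constant region, lay at 723.7 kb, and Trdc (54142851 to 54146108), the delta constant region, at 645.8 kb. Dad1, an oligosaccharyltransferase subunit expressed in most cells, and Abhd4, a lipid hydrolase, flank the constant end and lay 746.1 and 763.0 kb outside. At the other end Olfr1510 and Olfr1511, odorant receptor genes, lay 39.3 and 19.1 kb inside the LAD. The odorant receptor genes between Trav1 and Trav2 were also inside, Olfr1509 at 79.7 kb, Olfr1508 at 93.9 kb and Olfr1507 at 121.7 kb, as was Gm36448 at 167.4 kb. The coding gene nearest each end of the locus therefore shared the side of the V or constant segments next to it.

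**Figure D2:**
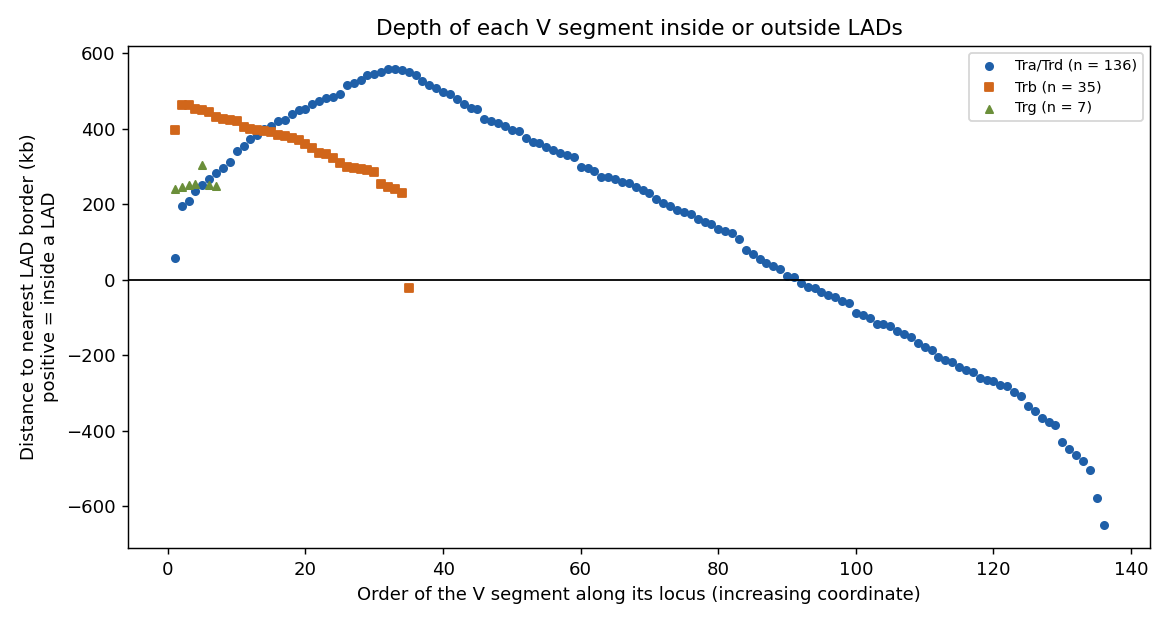
Distance from the midpoint of each V segment to the nearest LAD border in kb (y axis, positive inside a LAD and negative outside) against the order of the segment along its locus (x axis), with 1 point per segment for Tra/Trd, Trb and Trg. Tra/Trd runs from 57.3 kb inside at Trav1 through 558.9 kb to 650.3 kb outside at Trdv5, whereas in Trb only the last segment, Trbv31, is outside and all 7 Trg segments are inside.

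The V segments with a Trdv symbol were on one side. None of the 6 Trdv segments was in a LAD, against 91 of 130 Trav segments (70.0%). All 6 lie at the proximal end of the locus, where every V segment was outside. Trav22 and Trav23, which stand among them, lay 428.6 and 478.8 kb outside. The Trdv count thus cannot be told apart from position along the locus. Trdv1 lay 383.3 kb from the border, Trdv2-1 447.7 kb, Trdv2-2 462.6 kb and the pseudogene Trdv3 502.4 kb. Trdv4 (54075004 to 54075515), known from the early fetal delta chains of skin-homing T cells, was at 576.6 kb. Trdv5, which lies downstream of Trdc and is joined by inversion like Trbv31, was the farthest of all members from a LAD, at 650.3 kb. The delta D segments Trdd1 and Trdd2 lay at 614.8 and 623.6 kb. Another 10 segments carry both a Trav and a dv name because they can serve alpha and delta chains, and of these 4 were in the LAD and 6 outside.

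The mouse Tra locus holds repeated blocks of V segments, and the symbols mark copies of a segment by a d or an n after the subfamily number. All 40 d copies and all 34 n copies were in the LAD, whereas of the 56 unmarked Trav segments 17 were inside and 39 outside. For 32 segment numbers the annotation has a d, an n and an unmarked copy. In 29 of these the d and n copies were inside and the unmarked copy was outside, and in the other 3 (Trav6-5, Trav7-4 and Trav9-1) the unmarked copy was inside as well. The d copies (52683964 to 53082522) and the n copies (53091346 to 53375278) form unbroken blocks in this LAD. Most of their unmarked partners lie beyond its border at 53498651. These counts therefore restate the place of a single border and are not separate observations. Among these 32 numbers, the d copies lay 399.0 to 558.9 kb inside (median 482.6 kb) and the n copies 123.6 to 407.0 kb inside (median 264.6 kb). The 29 unmarked copies outside lay 7.39 to 268.3 kb from the border (median 136.5 kb).

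Trav11 gives an example, since it encodes the V part of the invariant alpha chain of mouse natural killer T cells, joined to Traj18. Trav11 (53519303 to 53519859) lay 20.9 kb outside the LAD and Traj18 702.2 kb outside. Its copies Trav11d and Trav11n lay 453.5 and 363.3 kb inside. Trav10, which lies close to Trav11, was also outside, with Trav10d 440.1 kb and Trav10n 376.3 kb inside. By subfamily, 14 of 23 Trav subfamilies had members on both sides, 2 (Trav1 and Trav2) were wholly inside and 7 wholly outside. Copies of a segment are alike in sequence, and how reads that match several copies were assigned is not given in the sources used here; its part in the position of the border was not tested.

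**Figure D3:**
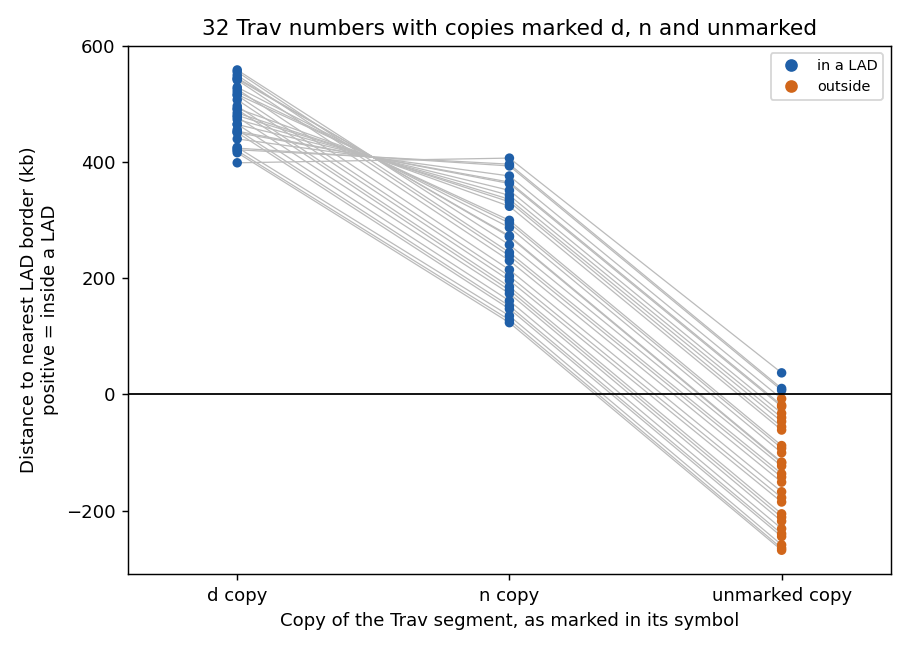
Distance to the nearest LAD border in kb (y axis, positive inside a LAD) of the d, n and unmarked copies (x axis) of the 32 Trav segment numbers that have all of them; each point is a segment, blue in a LAD and orange outside, and grey lines join copies with the same number. All d and n copies are inside, and 29 of 32 unmarked copies are outside.

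The Trg locus was covered whole. A LAD from 18938282 to 19588279 on chromosome 13 (650.0 kb, rank 589 by length) held all 7 V segments, all 4 J segments and all 4 constant regions of its V-J-C cassettes. The V segments lay between 240.0 kb (Trgv7, 19178042 to 19178492) and 304.8 kb (Trgv3) from a border. Trgv4 was 247.0 kb inside and Trgv6 252.4 kb. Trgv5, the V segment of the T cells of mouse epidermis, was 254.2 kb inside, Trgv2 251.5 kb and Trgv1 (19340016 to 19340454), the last, 248.0 kb. The locus is compact and sat near the middle of its domain, so these depths differ little. The constant regions were as deep: Trgc1 at 277.1 kb, Trgc2 at 282.0 kb, Trgc3 at 323.9 kb and Trgc4 at 239.8 kb.

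The Trg LAD also held the genes that flank the locus. Amph, which encodes amphiphysin, a protein of endocytosis at synapses, lay 112.8 kb inside, and Stard3nl, a late endosome protein that tethers it to the endoplasmic reticulum, 211.5 kb inside. These were the 2 protein-coding genes of the domain, or 3.08 per Mb. Of the next genes outwards, Vps41 had its midpoint 46.2 kb inside another LAD, and Epdr1 lay 17.5 kb outside. No protein-coding gene overlapped the Trg segments themselves.

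Coverage by bases put the loci in the same order as the counts of segments. From the first to the last V segment, LADs covered 162.4 of 162.4 kb (100%) in Trg, 620.7 of 667.1 kb (93.1%) in Trb and 1071 of 1721 kb (62.2%) in Tra/Trd. The spans of the chromosomes were covered to 40.2% for chromosome 13, 52.9% for chromosome 6 and 56.5% for chromosome 14. Over the spans of all chromosomes LADs covered 50.6% of bases. By this measure the V window stood 5.73 percentage points above its chromosome in Tra/Trd, 40.1 in Trb and 59.8 in Trg. In Tra/Trd the difference was wider by counts, with 66.9% of V segments against 38.5% of the genes of chromosome 14.

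Over all loci, 110 of 148 V segments not typed as pseudogenes (74.3%) and 22 of 30 pseudogenes (73.3%) were in a LAD. Among annotated pseudogenes of any kind, 5413 of 10345 (52.3%) were, more than among all genes. In Trb all 13 pseudogenes and 21 of 22 other V segments were in the LAD. In Tra/Trd it was 9 of 17 pseudogenes (52.9%) and 82 of 119 others (68.9%). Along Tra/Trd there were 8.56 V segments per 100 kb in the run inside and 6.99 per 100 kb in the run outside, with a median spacing of 8.69 and 10.3 kb. The Trb run in the LAD had 8.70 per 100 kb and the Trg locus 4.31.

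The immunoglobulin loci, which are assembled by the same recombinase in B cells, were placed in the same way. All 348 V segments with symbols starting Ighv (183), Igkv (162) or Iglv (3) lay in a LAD. So did the D, J and C segments of these loci, 32 of 32 for Igh, 6 of 6 for Igk and 9 of 9 for Igl. Pooled over loci, the immunoglobulin V segments were deeper, at a median of 892.5 kb from a border against 345.7 kb for the 132 T cell receptor V segments in LADs. By locus the medians were 911.6 kb for Ighv, 882.3 kb for Igkv and 241.8 kb for Iglv. The T cell receptor medians inside were 342.8 kb in Tra/Trd, 379.1 kb in Trb and 251.5 kb in Trg, so Iglv was not deeper. Of the immunoglobulin sets, the Igk J and C segments were the shallowest, at a median of 13.5 kb inside. With LADs shortened by 50 kb at both ends, an alternative run after these values were seen, 0 of the 6 Igk J and C segments, 158 of 162 Igkv segments and 30 of 32 Igh D, J and C segments were still inside, while the counts of the other immunoglobulin sets did not change. In the list as deposited, all placed segments of Trg and of the immunoglobulin loci were thus in LADs. For the immunoglobulin loci the bases between segments were not examined. In Tra/Trd and Trb, by contrast, the D, J and C segments were outside and 91 of 136 and 34 of 35 V segments inside. For Trb this holds for the list as deposited and is lost when LADs are joined at 250 kb or extended by 50 kb, which puts all 18 of its D, J and C segments and Trbv31 in a LAD. Whether such a split exceeds what the placing of borders alone would give was not tested.

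**Figure D4:**
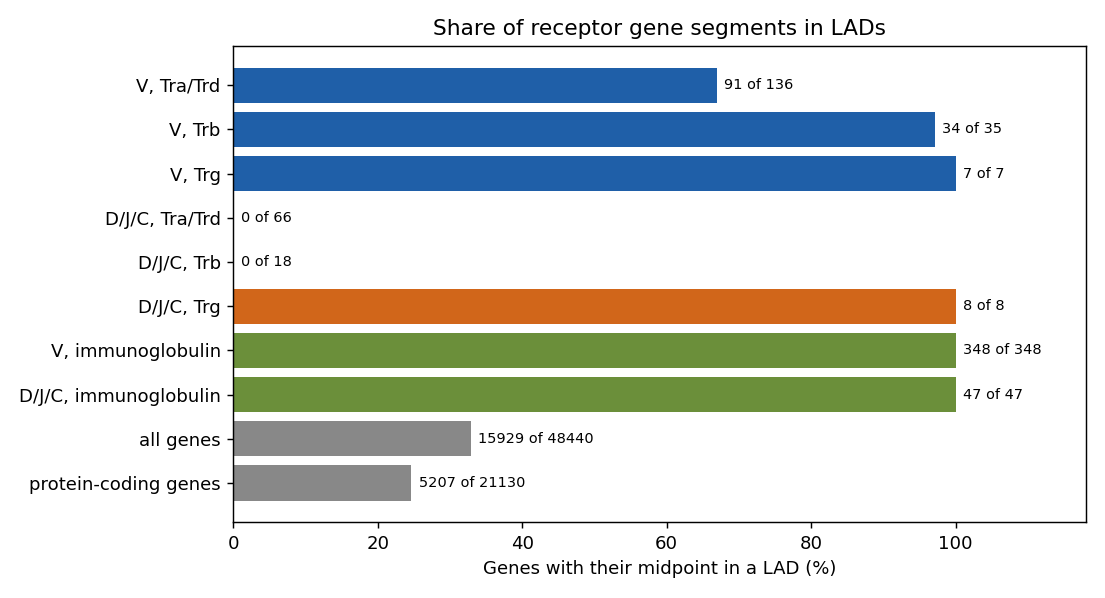
Share of genes with their midpoint in a LAD (x axis, percent) for V segments and for D, J and C segments of each T cell receptor locus, for the immunoglobulin loci and for all genes; the counts stand beside the bars. V segments range from 66.9% to 100%, D, J and C segments of Tra/Trd and Trb are at 0 of 66 and 0 of 18, and all genes are at 32.9%.

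Other genes of the receptor and of T cell development were taken from 5 lists with 47 genes, all of which were found in the annotation. Of these, 6 (12.8%) lay in a LAD, against 24.6% of protein-coding genes. None of the 5 genes of the receptor complex did: Cd3e, Cd3d and Cd3g, which encode the signalling chains bound to the receptor, lay 1532, 1552 and 1561 kb outside, Cd247, the zeta chain, 218.9 kb and Ptcra, the surrogate alpha chain, 1782 kb. None of the 8 coreceptor and costimulation genes did either, with Cd4 527.2 kb and Cd8a 639.4 kb outside.

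The recombination and end joining list had 1 of 10 genes in a LAD. Rag1 and Rag2, the recombinase that cuts the V segments, lay 236.8 and 221.5 kb outside, and Dntt, which adds bases at the joints, 843.4 kb outside. Xrcc4, a cofactor of the ligase that seals the joints, had its midpoint 21.3 kb inside a LAD on chromosome 13 (89853058 to 89990556) that is shorter than the gene. The signalling list had 3 of 10 genes in a LAD (30.0%), the only list above the 24.6% of protein-coding genes. Among these, the adaptor gene Lcp2 lay 121.5 kb inside and the phosphatase gene Ptprc 142.8 kb inside. The list of lineage transcription factors had 2 of 14, Tox (360.6 kb inside) and Ikzf1 (21.7 kb), and the end of Ikzf1 reached past the border of its domain.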

How the data were processed

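CUT&RUN libraries of iMEF fibroblasts were made with antibodies to Lamin B1, H3K9me2 and H3K14ac and with IgG. The authors deposited 1 list of LADs in BED format; its values are start and end positions in base pairs, and the deposited score column held 0 in every line. The submitters' processing notes name Bowtie2 and mm10 without a role; the domain caller, its threshold, the handling of reads with several matches and the use of IgG or spike-in are not given in the sources used here. Domain lengths came in steps of 2.5 kb (100% matched with a tolerance of 125 bp), and the shortest gap was 52499 bp. A shorter gap inside a receptor locus may therefore be missing from this list. Read depth is unknown. Signal tracks and reads of the libraries were not used here.

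Genes were taken from NCBI RefSeq's annotation of GRCm38.p6 (the build mm10), in a table that has no strand. Genes were placed by midpoint, with distances to the nearest border, in Python 3.11.15 (pandas 2.3.3). Promoters were aligned with Biopython 1.88 (match 1, mismatch -1, gap opening -3, extension -0.5). The placement was tested on simulated data. Members and lists were chosen with earlier results of these data known. Genes named were the first, last and deepest V segments of each locus, those nearest a border, V segments outside or the ends of their runs, constant segments, coding neighbours and list genes in LADs; others named were chosen after their values were seen, for their known roles or as neighbours of these. Alternatives were other points of the gene, minimum LAD lengths of 100 and 500 kb, joining at 250 kb, borders moved by 50 kb, and leaving out pseudogenes. Part of the T cell lists enters their counts and is not reported here by name.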

Additional observations from a re-analysis of the deposited data

How the results depend on the processing

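Segments of a locus are not independent, so the values under each alternative are given without a verdict on stability. Over all loci the share of V segments in LADs ran from 71.3% to 78.1%. Placing V segments by either end, by the whole gene or by any overlap, or requiring LADs of at least 100 or 500 kb, left the 132 of 178 as it was. The Trb split depends on its 67.5 kb gap. With LADs joined across 250 kb or extended by 50 kb at both ends, that gap closes by construction, so 100% of Trb V segments and 100% of the bases of their window were in LADs, and D, J and C segments over all loci went from 8.70% to 28.3%. Shortened by 50 kb, LADs covered 85.6% of the Trb V window and 59.3% of the Tra/Trd window, which was 65.1% when extended and 59.6% over all segments. The background share of all genes was 31.7% for whole genes, 33.8% for any overlap, 32.4% and 29.1% with LADs of at least 100 and 500 kb, 36.2% when joined, 28.6% when shortened and 37.9% when extended. No paired analysis was possible because the list is merged and holds no values per replicate. No model was fitted, and for the same reason no result could be repeated with a replicate left out.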
